A study of Mus musculus with 10 samples.

Results

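Hmgb1, Cbx3 and Ptma encode 3 chromatin proteins that most cells make in large amounts. They were followed over 10 arrays of mouse lung RNA. They are 3 of 19505 genes with a probe set on the array, and they were chosen by their measured level, a value above the array's median of gene probe sets on all 10 arrays. That level, and its distance to the negative controls, is therefore given below as a description with no test. Each gene had 1 probe set, TC0500003648.mm.2 for Hmgb1 (NCBI gene 15289), TC0600000608.mm.2 for Cbx3 (NCBI gene 12417) and TC0100000790.mm.2 for Ptma (NCBI gene 19231).

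The mice were male C57BL/6J, 40 in all, aged 6 weeks, in 5 groups of 8, and all groups were treated for 20 days. Mice of the first group were not injected and had water as their treatment. The other groups had been injected with B16F10, a mouse melanoma line derived from C57BL/6, and received water, DTIC (dacarbazine, which alkylates DNA and is given in melanoma) at 70 mg/kg per day, SQ-diEG at 5 mg/kg per day or SQ-diEG at 25 mg/kg per day. Each group had 2 arrays, and the labels do not say how many mice an array stands for, so the p-values rest on the scatter of these samples alone, and that scatter may be technical. The labels also give the age in years in 1 place, taken here to mean weeks.

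HMGB1 is an abundant nuclear protein that binds and bends DNA through its HMG boxes. Damaged or stimulated cells release it, and outside the cell it acts on the receptor for advanced glycation end products, encoded by Ager and abundant on type I alveolar cells of the lung, and on Toll-like receptors. CBX3, also called HP1 gamma, is a heterochromatin protein whose chromodomain binds methylated lysine 9 of histone H3, and it is also found on transcribed genes. PTMA, prothymosin alpha, is a small, very acidic nuclear protein that binds linker histone H1, is made most in dividing cells, binds KEAP1, the inhibitor of the antioxidant factor NRF2, and restrains the assembly of the apoptosome.

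The arrays as a whole carried little signal that replicates shared. Pearson's r for 2 arrays, taken across genes (which do not count as replicates), was 0.13 to 0.25. The median of the gene probe sets was 7.33 to 7.40 on the log2 scale and that of the 5222 negative-control probe sets 7.56 to 7.74. The 95th percentile of the negative controls was 10.67 to 11.05, and 0.29% to 0.45% of gene probe sets per array lay above it. There were 52 markers in 7 lists (type I and type II alveolar cells, club and ciliated cells, endothelium, leukocytes, erythroid cells and B16F10 pigment cells). Of these 0 lay above the array median on all 10 arrays, where 2.7% of all genes did. On no array did 1 of them pass that percentile, which 2.63% of all genes passed on at least 1 array. Counts of 0 among 52 are near these shares. So the markers did not stand out from other genes, and the labelled tissue could not be seen in them. The mean of the type I list was 0.049 from the array median on the injected arrays given water and -0.53 with DTIC, and the other lists' means over a group were between -0.65 and 0.59, the widest span being that of 2 erythroid genes. In lung RNA a lower value can stand for fewer cells of a type or for less RNA per cell. At values this near those of the negative controls it can also be scatter. These cannot be told apart here.

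The promoters of the 3 genes are shown because they hold features that the genes have in common and that the choice did not use. No measurement here was made at the promoters. Each sequence runs 5′ to 3′ on the gene's strand, from 250 bases before to 50 bases after a RefSeq transcript start of GRCm38.p6, and all 3 genes matched that table. Hmgb1 and Cbx3 each had 2 starts there, of which the first listed is printed, and Ptma had 1. Capitals mark the motifs CCAAT, known as the core of NF-Y sites, and GGGCGG, the core of SP1 sites, each searched on both strands. The motifs share no letters with each other here.
Hmgb1, chr5:149053008-149053307, minus strand: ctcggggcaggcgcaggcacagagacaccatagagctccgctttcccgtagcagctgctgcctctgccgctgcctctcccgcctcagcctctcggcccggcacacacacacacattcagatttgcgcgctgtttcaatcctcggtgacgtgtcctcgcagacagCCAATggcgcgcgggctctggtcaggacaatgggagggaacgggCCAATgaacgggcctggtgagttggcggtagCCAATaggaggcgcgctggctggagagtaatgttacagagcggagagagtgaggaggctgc
Cbx3, chr6:51470366-51470665, plus strand: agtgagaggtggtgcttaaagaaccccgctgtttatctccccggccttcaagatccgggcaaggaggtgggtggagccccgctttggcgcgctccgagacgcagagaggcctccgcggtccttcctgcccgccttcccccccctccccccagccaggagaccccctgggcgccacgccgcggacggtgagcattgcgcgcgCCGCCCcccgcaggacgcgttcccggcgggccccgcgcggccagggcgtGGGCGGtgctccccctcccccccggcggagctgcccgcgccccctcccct
Ptma, chr1:86526307-86526606, plus strand: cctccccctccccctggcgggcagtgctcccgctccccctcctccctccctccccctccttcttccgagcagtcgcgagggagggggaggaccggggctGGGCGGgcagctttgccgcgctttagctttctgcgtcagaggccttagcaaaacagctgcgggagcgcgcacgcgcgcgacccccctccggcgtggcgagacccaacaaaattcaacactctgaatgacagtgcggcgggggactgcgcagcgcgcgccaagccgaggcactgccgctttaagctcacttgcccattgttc

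All 3 stretches held more CpG than the median window. The Hmgb1 stretch held 22 CpG dinucleotides, the Cbx3 stretch 34 and the Ptma stretch 28, where the median of 32851 promoter windows of the same length was 7. Among these windows the CpG counts were at the 76.9th, 92.3rd and 85.8th percentile, so that of Hmgb1 at its first listed start was not rare. The G+C content was 63%, 75.3% and 68%, against a median of 52.7%, at the 77.8th, 96.4th and 87.4th percentile. The Hmgb1 stretch held 3 CCAAT matches on either strand, and 3.37% of all windows held 3 or more. The Cbx3 stretch held 2 GGGCGG matches and the Ptma stretch 1, where 19.5% of all windows held 2 or more and 35.7% at least 1. TATAAA, searched on both strands, was in 0 of these 3 and in 13.6% of all windows. The second Hmgb1 start held 4 GGGCGG matches, where 10.7% of all windows held 3 or more, and the second Cbx3 start 0. CpG counts at these second starts were 45 for Hmgb1 (98.1st percentile) and 32 for Cbx3 (90.5th percentile). Their G+C content was 77% (97.6th percentile) and 71.7% (92.6th percentile), so the values of Hmgb1 depend on the start taken. A match says only that these letters are there.

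Hmgb1 values formed a high set of 7 arrays and a low set of 3. Its log2 values were 9.80 and 11.27 on the uninjected arrays, 11.90 and 12.15 on the injected arrays given water, 9.59 and 8.97 with DTIC, 11.66 and 11.55 with SQ-diEG at 5 mg/kg, and 11.94 and 12.02 with SQ-diEG at 25 mg/kg. Both DTIC arrays were the lowest of the 10, the first uninjected array came next, and the other 7 arrays lay close together at the top. The gene stood 1.58 to 4.77 log2 units above the array median, 3.71 ± 1.18 on average (SD, n = 10). Its value ranked between 5 and 27 among 19505 genes on 7 arrays, and at 406, 662 and 1969 on the first uninjected and the 2 DTIC arrays. On 7 arrays its value passed the negative controls' 95th percentile, and 6 genes of 19505 did so on 7 arrays or more. Ranks within an array also hold differences in brightness between probe sets that are unrelated to the amount of RNA.

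Cbx3 varied most between arrays of a group. Its log2 values were 8.94 and 10.99 on the uninjected arrays, 13.27 and 10.39 on the injected arrays given water, 8.66 and 11.51 with DTIC, 11.98 and 9.93 with SQ-diEG at 5 mg/kg, and 11.89 and 11.43 with 25 mg/kg. In 4 of the 5 groups its arrays differed by more than 2 log2 units, and only the 25 mg/kg pair lay close together. It stood 1.28 to 5.87 above the array median, 3.53 ± 1.43 on average (SD, n = 10), and its rank ran from 3 to 2673. Its value passed the negative controls' 95th percentile on 6 arrays, 1 in each group and 2 at 25 mg/kg, and 10 genes did so on 6 arrays or more.

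Ptma spanned the widest range and came nearest to the array median. Its log2 values were 7.65 and 9.96 on the uninjected arrays, 9.84 and 11.53 on the injected arrays given water, 9.51 and 10.61 with DTIC, 11.53 and 13.11 with SQ-diEG at 5 mg/kg, and 11.13 and 11.00 with 25 mg/kg. On the first uninjected array it was only 0.28 above the array median, and 48.9% of the negative controls were at or above it there. On the second array at 5 mg/kg it was the highest of all 19505 genes, 5.77 above the median. The mean was 3.22 ± 1.47 above the array median (SD, n = 10). Its value passed the negative controls' 95th percentile on 4 arrays, both at 5 mg/kg and 1 each of the injected water and 25 mg/kg groups, and 25 genes (0.128%) did so on 4 arrays or more.

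**Figure D1:**
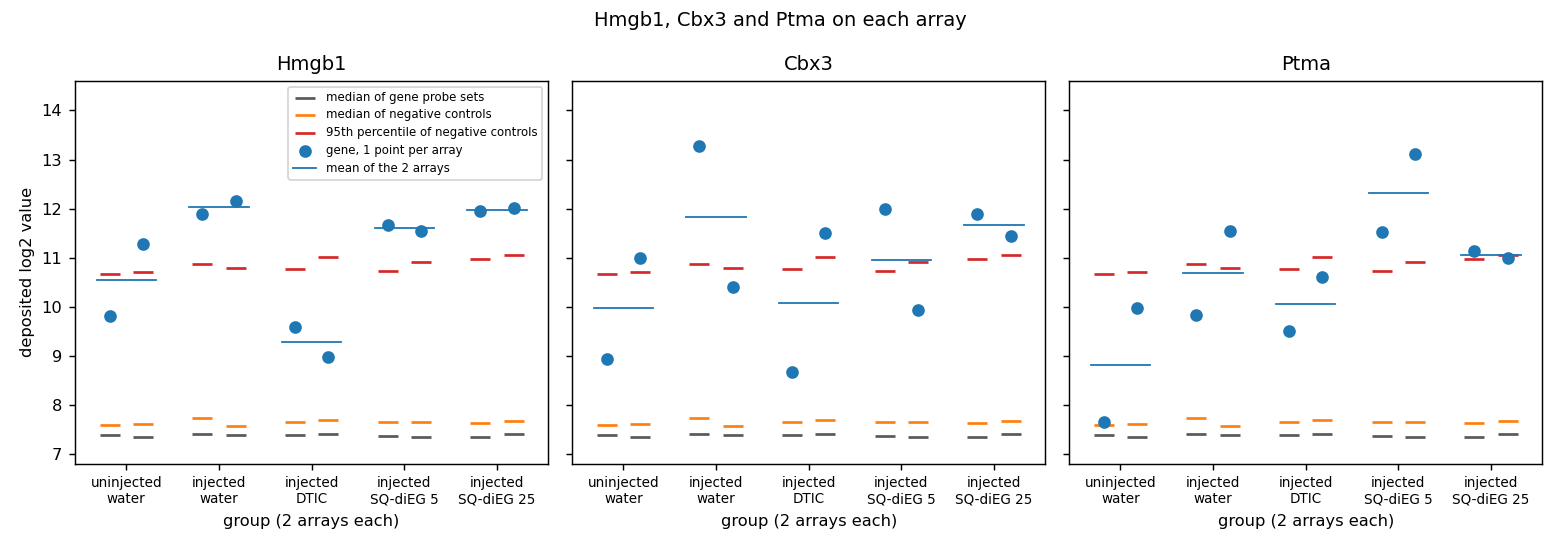
Deposited log2 values (y axis) of Hmgb1, Cbx3 and Ptma in the 5 groups (x axis), 1 point per array, with the mean of each pair as a blue line and, for each array, the median of gene probe sets, the median of the negative controls and their 95th percentile as short marks. Both DTIC points of Hmgb1, 9.59 and 8.97, lie under the red marks, and the lowest Ptma point, 7.65, lies beside the medians.

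On 2 arrays, both at replicate 1 of the SQ-diEG groups, all 3 genes passed the negative controls' 95th percentile. On the first uninjected and the first DTIC array 0 of the 3 did, and on the other 6 arrays 1 or 2 did. Each of the 3 passed it on at least 1 array, as 513 genes (2.63%) did. The threshold that chose the genes is a value above the array median on all 10 arrays, which 527 of 19505 genes (2.7%) met. By mean distance to the median, Hmgb1 was in place 7, Cbx3 in place 10 and Ptma in place 13 of these 527. Vmn2r120, just inside the threshold, had a lowest distance of 0.0014, and Olfr972, just outside, one of -0.000025.

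**Figure D2:**
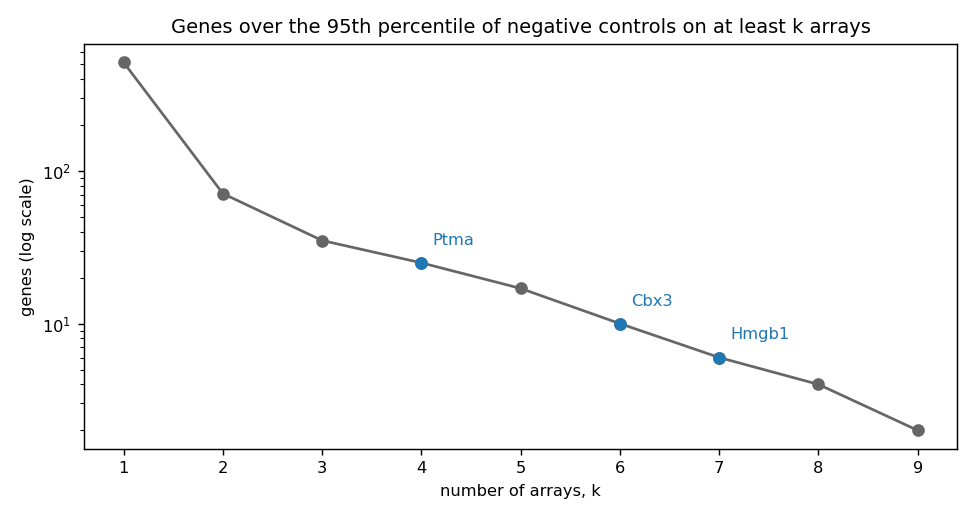
Number of genes (y axis, log scale) above the negative controls' 95th percentile on at least k of the 10 arrays (x axis), with the 3 genes marked at their own number of arrays. The curve falls from 513 genes at 1 array to 2 genes at 9 arrays, with 25 at Ptma, 10 at Cbx3 and 6 at Hmgb1.

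The spread between arrays of a group differed among the 3 genes. The pooled SD within groups was 0.51 for Hmgb1, 1.09 for Ptma and 1.58 for Cbx3, where the median of all genes was 0.91. That placed Hmgb1 at the 8.5th percentile of all genes and Cbx3 at the 97.4th. The SD of the 5 group means was 1.17 for Hmgb1, 1.29 for Ptma and 0.86 for Cbx3, and the median of all genes was 0.64. Hmgb1 and Ptma were thus at the 97.1st and 98.8th percentile for the distance between groups, and Cbx3 at the 80.5th.

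Whether a gene differed among the 5 groups at all was asked with limma's F test over all genes. The unadjusted p was 0.0133 for Ptma, 0.0215 for Hmgb1 and 0.251 for Cbx3. Of 19011 genes tested, 973 (5.12%) had an unadjusted p under 0.05 and 0 (0%) had one under 0.05 after Benjamini-Hochberg adjustment, which is what passing means throughout. The adjusted p from limma was 0.917 for Hmgb1 and for Ptma and 0.95 for Cbx3, so the differences among groups did not pass.

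The groups were ordered by their mean. Hmgb1 had the order DTIC at 9.28, uninjected at 10.54, SQ-diEG 5 mg/kg at 11.60, SQ-diEG 25 mg/kg at 11.98 and injected water at 12.02. The order of Cbx3 was uninjected at 9.97, DTIC at 10.08, SQ-diEG 5 mg/kg at 10.96, 25 mg/kg at 11.66 and injected water at 11.83. For Ptma it was uninjected at 8.81, DTIC at 10.06, injected water at 10.69, 25 mg/kg at 11.06 and 5 mg/kg at 12.32. The uninjected and DTIC groups held the lowest 2 places for each gene. The share of all genes with this order was not counted, so it is not shown to be particular to these 3. By mean, Eef1a1, described below, was also lowest in these groups, while Gapdh was not. No neighbours in any of the 3 orders differed beyond limma's 95% interval (the widest gap, 1.26, was that of DTIC and uninjected for Hmgb1 and of the SQ-diEG doses for Ptma).

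The first comparison set injected against uninjected mice, both given water. All 3 genes had a higher mean in injected lungs. Hmgb1 averaged 12.02 ± 0.18 (SD, n = 2) and 10.54 ± 1.04 (SD, n = 2), a log2 difference of 1.48 (SE 0.94, 95% interval -0.39 to 3.36). Both injected arrays were above both uninjected ones, as for 18.3% of all genes tested. Cbx3 differed by 1.86 (SE 1.04, interval -0.22 to 3.95) and Ptma by 1.88 (SE 0.98, interval -0.088 to 3.84), and their arrays overlapped. The adjusted p from limma was 0.909, 0.881 and 0.865. The sizes rested on single arrays. Without the first uninjected array the differences of Hmgb1, Cbx3 and Ptma were 0.75, 0.84 and 0.72, and without the second they were 2.22, 2.89 and 3.03. Leaving out the first injected array took Cbx3 to 0.42, and leaving out the second took Cbx3 to 3.30 and Ptma to 1.03. By limma 0 of 19011 genes (0%) passed, with 1092 (5.74%) at an unadjusted p under 0.05, and the 3 genes were not among these.

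The 4 hybridization controls (bioB, bioC, bioD and cre, foreign transcripts spiked in before hybridization) moved with this comparison. Their mean was 8.57 ± 0.15 (SD, n = 2) on the uninjected arrays and 10.64 ± 0.51 (SD, n = 2) on the injected arrays given water. With that mean as a covariate the Ptma difference was -0.99, and those of Hmgb1 and Cbx3 were 1.63 and 2.56. The unadjusted p from limma was 0.591, 0.375 and 0.201 in that order, where without the covariate it was 0.0608, 0.119 and 0.0783. The controls lay far apart between these groups, so the values with the covariate are imprecise. The part of the controls in the result was not tested.

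The comparison of all 8 injected arrays with the 2 uninjected ones gave the largest shift for Ptma. Its lowest, median and highest values on the injected arrays were 9.51, 11.06 and 13.11, against 7.65 and 9.96 without injection, so the groups overlapped. They overlapped for the other 2 genes too, and 4.8% of genes tested had no overlap. The log2 difference of the group means was 2.22 (SE 0.78, interval 0.67 to 3.78), with an unadjusted p = 0.00582 and an adjusted p = 0.775 in limma. It ranked 138th of 19011 genes by p, and 1031 genes (5.42%) were at an unadjusted p under 0.05, while 0 (0%) passed. Without the first uninjected array the difference was 1.07, and without the second it was 3.38. With the hybridization controls as a covariate it was 0.026 (unadjusted p = 0.985 in limma), again an imprecise value. The differences were 0.68 (SE 0.74) for Hmgb1 and 1.17 (SE 0.82) for Cbx3, with adjusted p = 0.957 and 0.922 in limma. The difference of Cbx3 was 0.14 without the first uninjected array and 2.19 without the second. The uninjected arrays and the injected arrays given water enter both comparisons.

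The comparison of DTIC with water in injected mice gave the largest difference of Hmgb1. Its mean was 9.28 ± 0.43 (SD, n = 2) in the DTIC group, where water gave 12.02, and the log2 difference was -2.74 (SE 0.94, interval -4.62 to -0.86). Both DTIC arrays lay below both water arrays, as for 16.2% of genes in that direction. The unadjusted p was 0.00497, which ranked 96th of 19011 genes, and the adjusted p from limma was 0.919, so Hmgb1 did not pass. In this comparison 925 genes (4.87%) had an unadjusted p under 0.05 and 0 (0%) passed. Among single arrays, only those of the DTIC and water groups can move this Hmgb1 difference. Leaving out 1 of them kept it between -3.05 and -2.44.

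Cbx3 differed by -1.75 under DTIC (SE 1.04, interval -3.83 to 0.33, adjusted p = 0.995 in limma) and Ptma by -0.63 (SE 0.98, interval -2.59 to 1.34, adjusted p = 0.995 in limma). The arrays of both genes overlapped between the groups. Unlike Hmgb1, Cbx3 moved with single arrays, to -0.31 without the first water array, -3.19 without the second, -0.32 without the first DTIC array and -3.17 without the second. Ptma ran from -1.48 without the first water array to 0.22 without the second. The hybridization controls averaged 9.75 ± 0.75 (SD, n = 2) with DTIC, under the 10.64 of the water arrays. With them as a covariate the Hmgb1 difference was -2.80, that of Cbx3 -2.05 and that of Ptma 0.61 (adjusted p = 0.833, 0.967 and 0.99 in limma). Of 5 club and ciliated cell markers tested, 3 had an unadjusted p under 0.05 with DTIC in limma, where 4.87% of all genes did, and 0 passed. In this list 2 genes were higher and 3 lower, with a median log2 difference of -0.51. Scgb1a1, the club cell secretoglobin, differed by -2.20 and Ccdc113, a gene of ciliated cells, by -1.97, while Cyp2f2, a club cell cytochrome, differed by 2.44. The mean of that list's 6 genes on the array was -0.024 from the array median with water and -0.45 with DTIC. Its part in the Hmgb1 result was not tested.

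For SQ-diEG at 5 mg/kg against water, the difference of Ptma was the widest of the 3. Its mean was 12.32 ± 1.12 (SD, n = 2) at this dose, where water gave 10.69, and the log2 difference was 1.64 (SE 0.98, interval -0.33 to 3.60, adjusted p = 0.967 in limma). The arrays overlapped narrowly, at 11.53 in each group. The difference was 0.79 without the first water array, 2.48 without the second and 0.85 without the second SQ-diEG array. Hmgb1 differed by -0.42 (SE 0.94, interval -2.30 to 1.46) and its arrays did not overlap, as for 18% of genes in that direction, while Cbx3 differed by -0.87 (SE 1.04, interval -2.95 to 1.21) and overlapped. The adjusted p from limma was 0.991 and 0.982. Of 19011 genes 1005 (5.29%) were at an unadjusted p under 0.05 and 0 (0%) passed by limma. With the hybridization controls as a covariate, whose mean was 9.63 ± 0.74 (SD, n = 2) at this dose, the Ptma difference was 3.04 (adjusted p = 0.959 in limma).

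SQ-diEG at 25 mg/kg left the means of all 3 genes within 0.4 log2 units of water. Hmgb1 differed by -0.043 (SE 0.94, interval -1.92 to 1.84), Cbx3 by -0.17 (SE 1.04, interval -2.25 to 1.91) and Ptma by 0.38 (SE 0.98, interval -1.59 to 2.34). These intervals allow differences of over 1.5 log2 units either way, so they do not show that the levels were alike. The adjusted p from limma was 0.998, 0.996 and 0.991. The arrays overlapped between the groups for all 3 genes, and 33.4% of genes tested had no overlap. By limma 0 genes (0%) passed and 997 (5.24%) were at an unadjusted p under 0.05. At this dose the hybridization controls averaged 10.59 ± 0.46 (SD, n = 2).

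The higher dose was also set against the lower. Ptma was 1.26 lower on the log2 scale at 25 mg/kg (SE 0.98, interval of the difference -3.22 to 0.71, adjusted p = 0.936 in limma), and its arrays did not overlap, as for 15.8% of genes in that direction. It was -2.05 without the first array at 5 mg/kg and -0.47 without the second. Hmgb1 differed by 0.38 (SE 0.94, adjusted p = 0.992 in limma), again without overlap, as for 17.7% of genes. Cbx3 differed by 0.71 (SE 1.04, adjusted p = 0.987 in limma) and overlapped. In this comparison 983 genes (5.17%) were at an unadjusted p under 0.05 and 0 (0%) passed by limma.

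**Figure D3:**
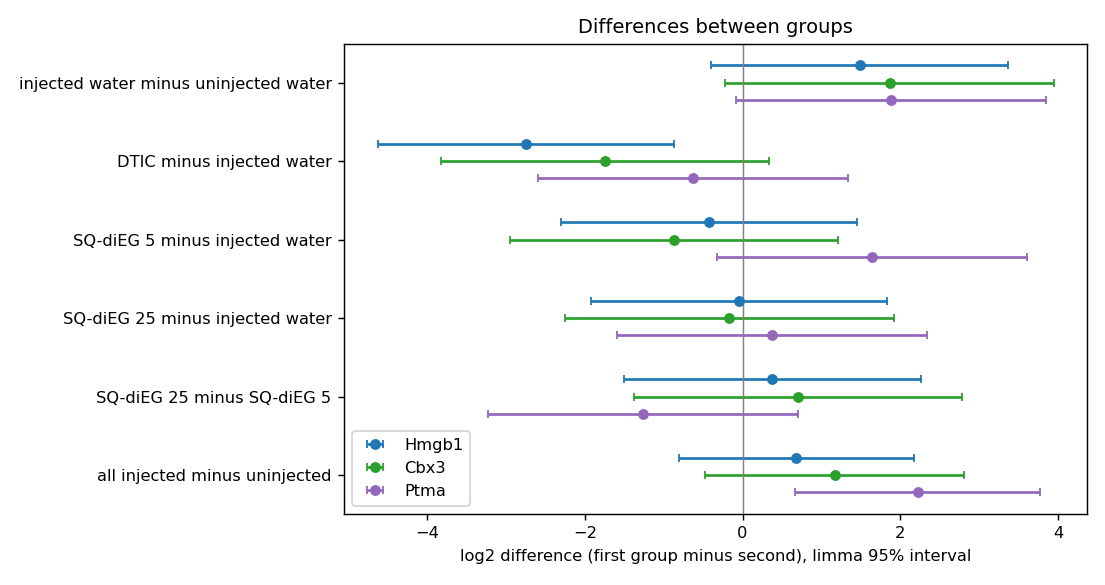
Log2 differences (x axis) of Hmgb1, Cbx3 and Ptma in the 6 comparisons (y axis), as points with limma's 95% intervals, without adjustment for the number of genes. The intervals of Hmgb1 under DTIC (-4.62 to -0.86) and of Ptma in all injected against uninjected mice (0.67 to 3.78) leave out 0, and neither gene passed after adjustment over 19011 genes.

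**Figure D4:**
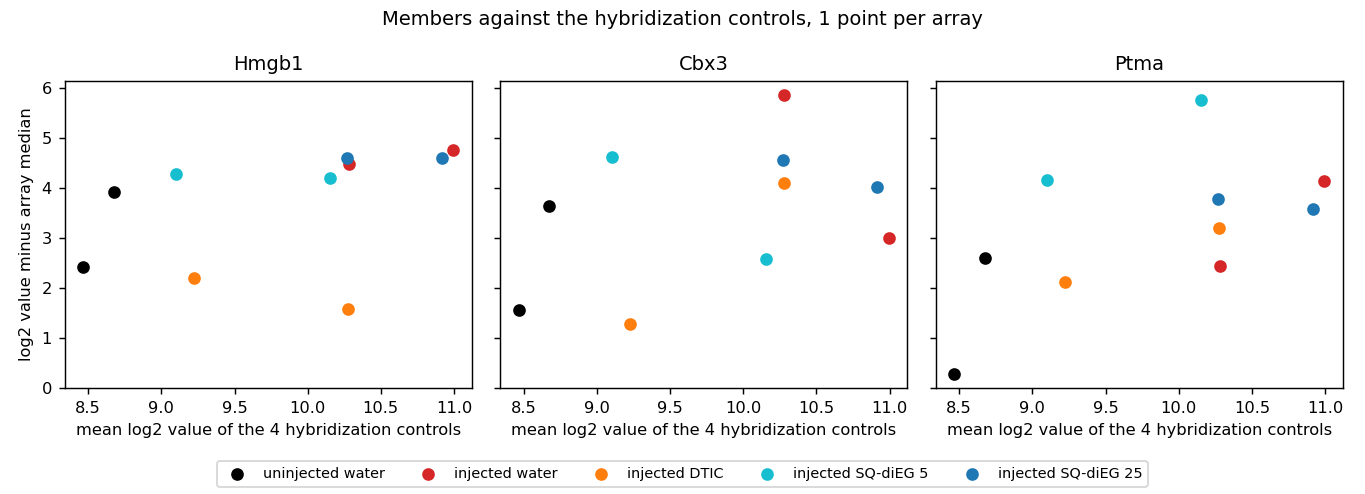
Log2 value minus array median (y axis) of each gene against the mean log2 value of the 4 hybridization controls (x axis), 1 point per array, coloured by group. The 2 uninjected arrays have the lowest controls (8.47 and 8.68), and the DTIC points of Hmgb1 lie lowest at controls of 9.22 and 10.28.

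The other members of the 3 protein families are given by their distance to the array median. That distance keeps the differences in brightness between probe sets, so it does not rank the genes by amount of RNA. Of the HMGB family, Hmgb2 was 0.86 ± 0.77 (SD, n = 10) above the array median and exceeded it on 9 arrays, while Hmgb3 was 0.74 ± 1.12 (SD, n = 10) above it and exceeded it on 7. Hmgb4, a testis gene, was -1.20 ± 0.69 (SD, n = 10) from the median and above it on 1 array. Of the HP1 family, Cbx1 (HP1 beta) was above the median on 2 arrays and Cbx5 (HP1 alpha) on 1, with mean distances of -0.46 ± 0.95 and -0.67 ± 0.54 (SD, n = 10). None of Hmgb2, Hmgb3, Hmgb4, Cbx1 and Cbx5 passed the negative controls' 95th percentile on any of the 10 arrays, while Ptms, the paralog of Ptma, did on 1.

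Ptms encodes parathymosin. It was 1.04 ± 1.49 (SD, n = 10) above the array median and exceeded it on 8 arrays. Its log2 values were 7.32 and 7.64 without injection, 7.59 and 7.13 in injected mice given water, 7.87 and 7.76 with DTIC, 8.34 and 9.81 with SQ-diEG at 5 mg/kg, and 11.96 and 8.74 with 25 mg/kg. The first array at 25 mg/kg was the highest and the only one above the negative controls' 95th percentile. Both arrays at 25 mg/kg lay above both water arrays, as for 16.6% of genes tested. At 25 mg/kg against water the log2 difference was 2.99 (SE 0.99, unadjusted p = 0.00365, adjusted p = 0.942 in limma), where Ptma differed by 0.38. Without that highest array the difference was 1.38, and without the other array at 25 mg/kg it was 4.60, an alternative chosen after seeing the data. At 5 mg/kg the Ptms difference was 1.72 (SE 0.99), where Ptma differed by 1.64.

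**Figure D5:**
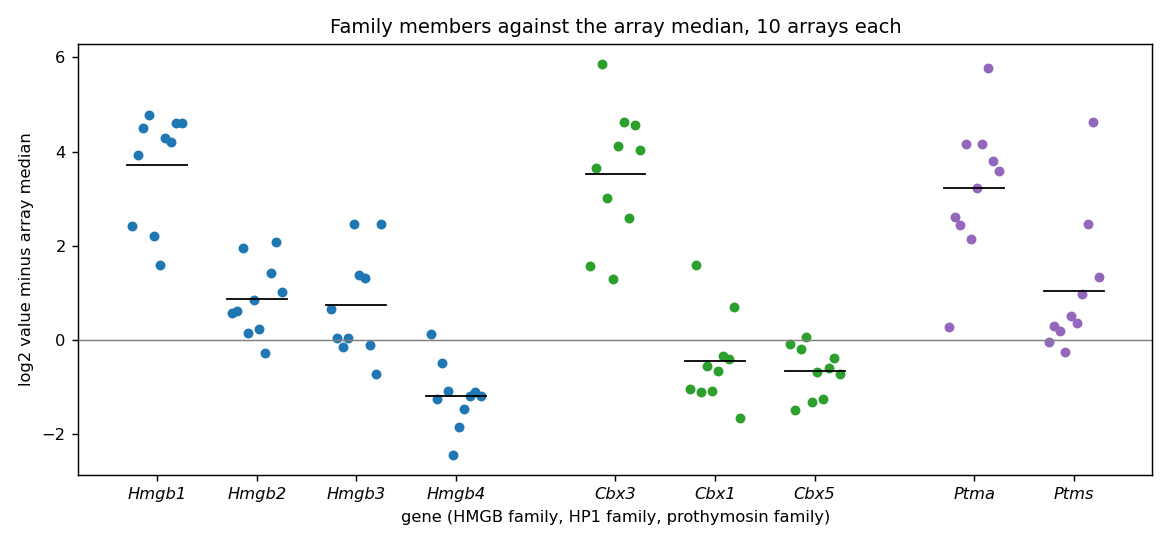
Log2 value minus array median (y axis) for the members of the HMGB, HP1 and prothymosin families (x axis), 1 point for each of the 10 arrays, with the mean as a black bar. All points of Hmgb1, Cbx3 and Ptma lie above 0, as the choice of these genes fixes, and the mean bars of Cbx1 and Cbx5 lie at -0.46 and -0.67.

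Of 108 listed pathway genes other than the 3, 6 (5.56%) lay above the array median on all 10 arrays, next to 2.7% of all genes. They were 4 of 19 transcripts that most cells make in large amounts (Gapdh, Eef1a1, Actb and Hnrnpa2b1), the histone chaperone list's nucleolin, Ncl, and the histone variant gene H2az1. Gapdh, a glycolytic enzyme, stood 2.78 ± 1.09 (SD, n = 10) above the array median and Eef1a1, a translation elongation factor, 2.48 ± 1.15 (SD, n = 10). Gapdh passed the negative controls' 95th percentile on 4 arrays, as many as Ptma, and Eef1a1 on 2. By arrays above the array median, the middle gene of the histone chaperone, HP1 and HMGB1 receptor lists stood at 5 arrays, as did that of all genes. It stood at 4 for the Polycomb CBX and the linker and variant histone lists, at 6 for the PTMA partners and the abundant transcripts, and at 7 for the HMGA and HMGN proteins. The genes named next are those with the most arrays in their list. Among the receptors and signalling genes of HMGB1, the adaptor Myd88 and the receptor Ager were above the median on 9 arrays, Rela, a subunit of NF-kappaB, on 8, and the adhesion protein Cd24a on 7. In the HP1 list, which holds the enzymes and partners of histone H3 lysine 9 methylation, the chromatin remodeller Atrx led with 8 arrays, ahead of Uhrf1 and Ehmt2 with 7 and Setdb1 with 6.

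Among histone chaperones, Ncl was above the median on 10 arrays, Set on 9, and Asf1b and Hira on 8. In the list of PTMA partners, the importin Kpna1, the antioxidant genes Hmox1 and Txnrd1 and the glutathione synthesis gene Gclm were above it on 7. The antioxidant and glutathione synthesis genes are in that list by their link to NRF2, not as proteins that bind PTMA. Among HMGN and HMGA proteins, Hmgn2 and Hmgn1 were above it on 8 arrays, Hmgn3 on 7 and Hmgn5 on 4. The Polycomb genes Cbx7, Cbx8 and Cbx2 were above it on 7, 4 and 1, and the linker and variant histones H2az1 and H2az2 on 10 and 7.

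By limma 0 genes of any pathway list passed in any of the 6 comparisons, with 0 to 2 genes of a list at an unadjusted p under 0.05 in each. In injected against uninjected mice given water, 14 of 18 genes of the HMGB1 receptors and signalling list were higher, with a median log2 difference of 0.33, where 52.2% of all genes were higher and their median was 0.054. With DTIC against water 12 of these 18 were lower, with a median of -0.25, against 50.5% and -0.013 for all genes. Both counts use the same injected arrays given water. Ager, Tlr4 and Myd88 had an unadjusted p above 0.05 in both. In the HP1 list 11 of 15 genes tested were lower with DTIC, with a median of -0.26. Of 12 genes in the list of PTMA partners, antioxidant genes included, 8 were lower with injection and 8 with DTIC, with medians of -0.45 and -0.43. Of 19011 genes 9096 were lower with injection and 9610 with DTIC. The histone chaperones were split 9 to 9 with DTIC. Over all injected mice 13 of 18 were higher, with a median of 0.56, where 10087 of 19011 genes were higher and their median was 0.062. The HMGB1 receptors and signalling list was split 9 to 9 at SQ-diEG 5 mg/kg and 12 to 6, higher to lower, at 25 mg/kg. Of 19011 genes 9149 were higher at 5 mg/kg and 9338 at 25 mg/kg. Among the histone chaperones, nucleophosmin, Npm1, a gene singled out after its values were seen, differed by 3.27 (SE 0.97, unadjusted p = 0.00132, adjusted p = 0.72 in limma) in injected against uninjected mice and by -2.36 (SE 0.97, unadjusted p = 0.0178, adjusted p = 0.919 in limma) with DTIC. By unadjusted p under 0.05 the list had 1 of 18 genes in each, near the share of all genes.

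Whether the 3 genes moved together between arrays was not part of their choice. On values minus the array median, the Pearson correlation over the 10 arrays was 0.53 for Hmgb1 with Ptma (permutation p = 0.118), 0.50 for Hmgb1 with Cbx3 (permutation p = 0.145) and 0.28 for Cbx3 with Ptma (permutation p = 0.441). Spearman's rho was 0.49, 0.36 and 0.26 (permutation p = 0.154, 0.313 and 0.469). After Benjamini-Hochberg adjustment over the 3 pairs the smallest permutation p was 0.218 for r and 0.463 for rho, so no pair passed. These 10 arrays share treatments in pairs. With group means removed, r was 0.55, 0.088 and -0.0071 in the same order.

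Leaving out the 2 arrays farthest from the median of the first gene, r became 0.73 for Hmgb1 with Ptma and 0.65 for Hmgb1 with Cbx3, where both DTIC arrays were left out. It became -0.68 for Cbx3 with Ptma, so the positive sign of that pair rests on the first DTIC and the first uninjected array.

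The genes whose pattern over the 10 arrays was most like each of the 3 were found by Pearson's r, as a description with no test. Genes with clone-type names (Gm and digits, LOC and digits, Rik, or a leading digit) were left out. For Hmgb1 the most alike were Rplp0 (r = 0.96), Rnf125, Catsper3, Olfr73 and Fitm1 (r = 0.89 for the last). Rplp0, a ribosomal stalk protein, had log2 values of 7.19 and 8.01 on the uninjected arrays, 8.66 and 9.46 in injected mice given water, 6.91 and 6.88 with DTIC, 8.63 and 8.63 with 5 mg/kg, and 8.86 and 9.38 with 25 mg/kg. Its DTIC arrays were the lowest, as for Hmgb1, which its choice by r over these same arrays favours. For Cbx3 they were Smyd1 (r = 0.91), Poglut1, Cdh24, Mtus2 and Dhrs4 (r = 0.90), and for Ptma Vmn2r112 (r = 0.94), Oog2, Cox7c, Bace1 and Inpp1 (r = 0.90). Over 10 arrays, 0.1% of all genes, clone-type names included, reached an r of 0.84 or more with Hmgb1, 0.86 with Cbx3 and 0.84 with Ptma.

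The 3 genes share another feature that the choice did not use. In the RefSeq gene table of GRCm38.p6, pseudogenes named after them numbered 12 for Hmgb1, 6 for Cbx3 and 2 for Ptma. Of all 19505 genes, 1.53% had a pseudogene named after them, and of the 527 genes above the array median on all arrays, 3.98% did. Such copies can carry near-identical sequence, so these probe sets may also bind other transcripts. Probe sequences were not used here, and whether copies add to these values was not tested.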

How the data were processed

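Lung RNA was measured on 10 arrays. The deposited values are log2 probe set values, 1 column per sample, and per the submitters' processing notes the RMA method, Expression Console (Affymetrix) and Transcriptome Analysis Console served the authors for this, with no version or background step named (not given in the sources used here). They describe a 3' kit, while the probe set names have the form of whole-transcript arrays. Of 28846 probe sets, 6640 were controls by name, 19572 had 1 gene symbol in the platform annotation, 0 had several and 2634 had none. The number of arrays limits the precision.

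A gene was its probe set with the highest mean. A gene was tested where 2 or more arrays reached the 40th percentile of their non-control probe sets, which kept 19011, the 3 genes among them, and removed 494. One group-means model over all arrays was fitted with limma 3.58.1 in R 4.3.3 (lmFit, eBayes, 5 residual and 51 prior degrees of freedom, so the spread of a gene is drawn close to the common SD of 0.97), with Benjamini-Hochberg adjustment over all genes. Correlations used 100000 permutations, two-sided. The code was tested on simulated data.

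The genes, lists and tests were chosen with earlier results of these data known. Named genes are the 3, their families and up to 4 genes of each pathway list with the most arrays above the median. The 5 most alike by r, clone-type names left out, are also named. Npm1, Tlr4, Scgb1a1, Cyp2f2 and Ccdc113 are outside this rule and were named after their values were seen. Alternatives were scaling, filter, probe set choice, variance model, replicate block, hybridization controls as covariate, fits of the compared groups alone, and leaving out each array.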

Additional observations from a re-analysis of the deposited data

How the results depend on the processing

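The number of genes that passed was 0 in all 6 comparisons and in the test over 5 groups under each alternative run. Hmgb1 under DTIC lay between -3.05 and -2.44, but most alternatives could not change this difference. Filter, probe set choice, variance model, replicate block, groups fitted alone and arrays of other groups leave it as it is. Those that could change it were median centring (-2.74), quantile normalization (-2.73), the hybridization covariate (-2.80) and leaving out a DTIC or water array. In the alternatives that left out no single array, the adjusted p from limma was 0.833 to 0.963. With the hybridization controls as a covariate, the Ptma difference turned to -0.99 for injected against uninjected water and to 0.61 for DTIC. The unadjusted p from limma was then 0.591 and 0.608. Quantile normalization turned Hmgb1 at 25 against 5 mg/kg to -0.32.

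Leaving out each array in turn gave ranges that crossed 0. For DTIC against water this was Ptma, -1.48 to 0.22. For 5 mg/kg it was Cbx3, -2.31 to 0.57. For 25 mg/kg it was Hmgb1, -0.17 to 0.085, Cbx3, -1.61 to 1.27, and Ptma, -0.47 to 1.23. For 25 against 5 mg/kg it was Cbx3, -0.32 to 1.73, and for all injected mice Hmgb1, -0.053 to 1.42. The array left out then shares its group with 1 other, which is assumed to vary like the other groups. A fit of the compared groups alone adds nothing where all 10 arrays enter, and was not run there.

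Leaving out 1 array, the correlation of Hmgb1 and Cbx3 ran from 0.33 to 0.77, and among its alternatives passed only without the second DTIC array (permutation p = 0.0377 after adjustment). With group means removed it was 0.088. That of Cbx3 and Ptma ran from -0.098 to 0.54, and was -0.0071 with group means removed and -0.68 without the 2 farthest arrays. The cause was not tested. Leaving out 1 array could not move a mean distance to the array median by as much as 1 SD, whatever the values. With quantile normalization that mean was 3.73 for Hmgb1, 3.49 for Cbx3 and 3.22 for Ptma. Taken from the median of the negative controls instead, the mean distances were 3.44, 3.26 and 2.95. These levels are what the choice of the genes used, so they are a description with no test.

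Replicate numbers did not pair the arrays. Deviations of same-numbered arrays correlated at -0.022 to 0.048 over 10 pairs of groups, and arrays were on average closer to their own number in 4 of 5 groups. With the replicate block 0 genes passed in any comparison, and Hmgb1 under DTIC had an adjusted p = 0.893 in limma. The block cannot change the size of that difference, -2.74, since each group has 1 array of each number.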
